A study of Mus musculus with 29 samples.

Results

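The genes described here are 7 regulators of the mouse primitive endoderm: Gata6, Gata4, Sox17, Sox7, Hnf4a, Pdgfra and Dab2. They were taken by name as genes of this lineage, and all 7 were found at RefSeq positions on mm10, among 20558 protein-coding genes on chromosomes 1 to 19. For each gene, every segment of the authors' H2Aub segmentation over the gene body and 100 kb on each side was read. That stretch is called the window below.

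The primitive endoderm is the layer of the blastocyst that covers the inner cell mass and later forms the visceral and parietal endoderm of the yolk sac. FGF4 from epiblast precursors acts on FGF receptors to favour it, and it is held by a network of GATA and SOX factors that opposes the pluripotency factor NANOG. H2Aub, monoubiquitinated histone H2A, is laid down by Polycomb repressive complex 1 and is known for covering developmental regulator genes that a cell keeps silent.

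The series held 29 CUT&RUN libraries in 16 groups, 24 of H2Aub and 5 of H3K27me3. Eed MatKO libraries came from Gdf9-Eed (fl/fl) germinal vesicle oocytes and from 4-cell embryos and morulae of such females crossed to WT males, and their controls carried Eed (fl/fl) without the Gdf9 label, Gdf9 being an oocyte gene. PR-DUB is a complex that removes ubiquitin from H2A. PR-DUB (OE) 4-cell embryos stood beside PR-DUB (CTR) embryos, and WT H2Aub was profiled at 8 stages, from germinal vesicle oocyte to E6.5 epiblast. Oocytes were B6/129 mixed or B6/DBA, embryos came from crosses of such females to PWK, and WT libraries at some stages came from Eed (fl/fl) mothers. The values described here are 1 segmentation of the genome into H2Aub types numbered 1 to 5, with no value for any library. Stages, genotypes and replicates therefore could not be compared for these genes, and read depth is unknown. A type is a category with no key, so no level of H2Aub is attached to it, and the labelled cell types could not be checked against marker genes.

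Types 3 and 4 made up the bodies of 6 of the 7 genes without a base of any other type. Gata6, Sox17 and Sox7 each lay in 1 type throughout. Gata4, Hnf4a and Pdgfra each ran across a border between types 3 and 4. In Gata4 the type 4 part was 1712 bases, less than the 5 kb to which borders are known. Dab2, the adaptor gene, stood apart, with 5 segments of 4 types over its body. The first and last of these covered 213 and 715 bases of it, also less than 5 kb, and the last was its only type 3. Each gene was given as its leading type the one with the largest share of its bases. By that rule 4 of 7 were type 3 (Gata4, Gata6, Sox17 and Hnf4a), against 33.8% of all protein-coding genes. Another 2 were type 4 (Sox7 and Pdgfra), against 14.0%, and 1 was type 1 (Dab2), against 37.2%. None led in type 2 or type 5, which lead in 5.44% and 9.53% of protein-coding genes. Bodies made of types 3 and 4 alone were 39.2% of all protein-coding genes. Since 7 named genes are few and were chosen with results of these data known, these counts describe the genes and no test was made of them.

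**Figure D1:**
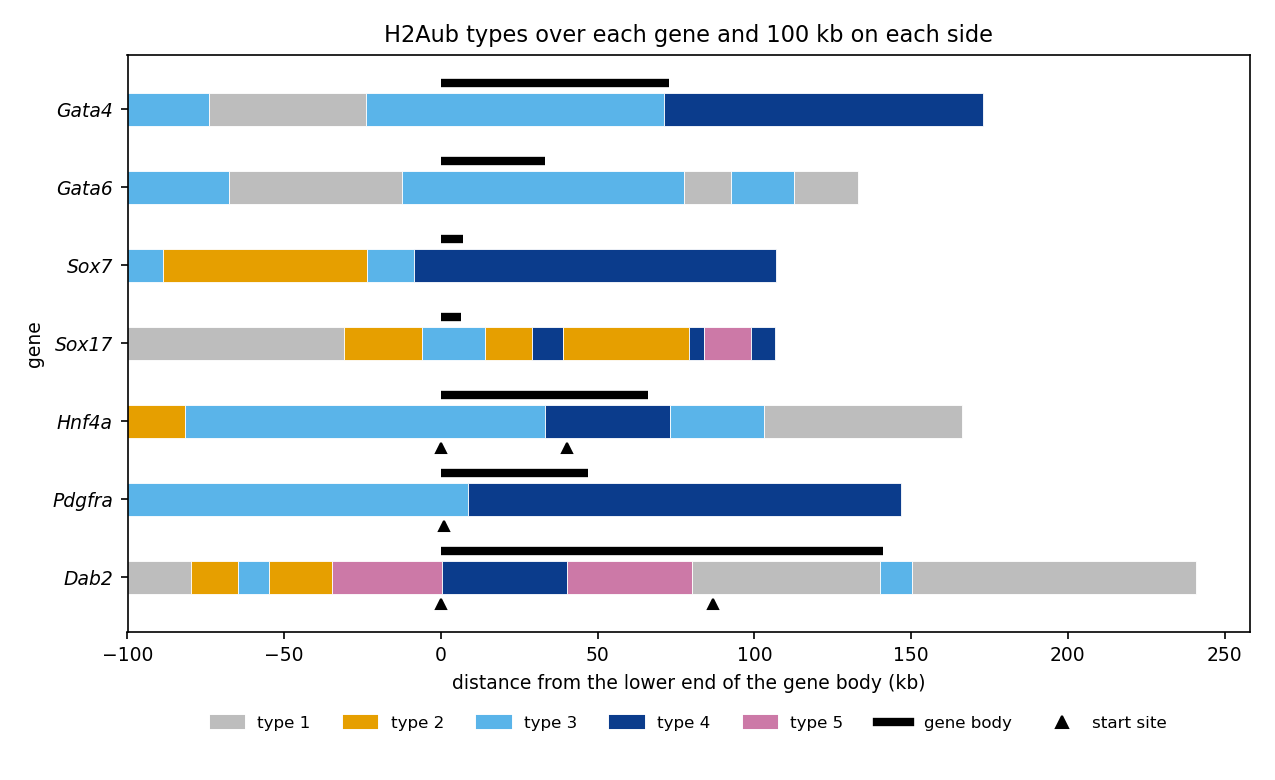
H2Aub types along each gene and 100 kb on each side, with distance from the lower end of the gene body in kb on the x axis and 1 gene per row. Black bars are gene bodies and triangles are start sites in the promoter table. Type 4 (dark blue) runs from inside or beside Gata4, Sox7 and Pdgfra to the end of their windows, and the Gata6 window holds types 1 and 3 alone.

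Gata6 encodes the zinc finger factor that starts primitive endoderm specification. It lies on chromosome 18 (11052510 to 11085636, 33.1 kb) and was 100% type 3. The type 3 segment was 90 kb long, began 12.5 kb below the gene and ended 44.4 kb above it. Of all type 3 segments, each counted once, 16.5% were at least that long. A segment that holds this gene whole cannot be shorter than 33.1 kb, and segments that hold genes were not ranked apart. Types 1 and 3 alternated over the window in 6 segments, giving 61.1% type 3 and 38.9% type 1. No type 4 was found in the window, whereas the windows of the other 6 genes held some (48.0% of protein-coding genes have type 4 in the window). The nearest type 4 segment was 1299 kb away, and 94.6% of protein-coding genes had one nearer. The 3 other genes of the window were long noncoding RNA genes. Gata6os, which overlaps the lower end of Gata6, lay in the same type 3 segment.

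Gata4 encodes the related zinc finger factor that is switched on after Gata6 in the same cells. On chromosome 14 (63198914 to 63271712, 72.8 kb) it was 97.6% type 3 and 2.35% type 4, and its type 3 segment measured 95 kb. The border lay at position 63270001, so that 1712 bases at the higher end of the gene were type 4. From there type 4 ran for 165 kb and filled 100% of the higher flank. Below the gene the flank was 50.0% type 3 and 50.0% type 1, with the type 1 part over the cathepsin gene Ctsb (89.2% type 1) and the squalene synthase gene Fdft1 (81.7% type 1). The DNA glycosylase gene Neil2, 4.76 kb from Gata4, lay wholly in type 3. The windows of Gata4 and Gata6 were thus alike in holding types 1 and 3 below the gene and differed above it, and 37.3% of the Gata4 window was type 4 against 0% of the Gata6 window.

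Sox17 encodes an HMG-box factor that maintains extraembryonic endoderm. It lies near the start of chromosome 1 (4490928 to 4497426, 6.5 kb) and was 100% type 3. That type 3 segment was 20 kb, shorter than those of Gata6 and Gata4, and type 2 segments of 25 kb and 15 kb bordered it on either side. Its window was the most mixed of the 4 GATA and SOX genes, with 9 segments and all 5 types, which 3.89% of protein-coding genes have. Type 2 took 38.7% of it, type 1 33.4%, type 4 10.9%, type 3 9.69% and type 5 7.26%. The type 4 in it came from 3 separate segments of 10, 5 and 30 kb, the nearest 22.6 kb from the gene. Of the 30 kb segment, 7.43 kb lay within the window. The 1 protein-coding neighbour, the photoreceptor gene Rp1, lay wholly in type 1, and no gene of the window shared the leading type of Sox17.

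Sox7, another factor of the same SOX subgroup, is expressed later in the lineage and in parietal endoderm. Located on chromosome 14 (63943706 to 63950732, 7.03 kb), it was 100% type 4. The segment began 8.71 kb below the gene and was 165 kb long. That length was reached by 10.7% of all type 4 segments, each counted once whether or not it holds a gene. The segment of Sox7 filled the higher flank and held Rp1l1 and 4930578I06Rik as well. Below the gene, 15 kb of type 3, 65 kb of type 2 and again 15 kb of type 3 followed each other, and Pinx1, a telomerase inhibitor gene, lay wholly in the type 2 part. The window was 55.9% type 4, 31.4% type 2 and 12.7% type 3, and the nearest type 1 lay 294 kb from the gene. Sox7 and Sox17 shared no type in their bodies, and 48.1% of one window would have to change type to give the shares of the other.

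Gata4 and Sox7 lie 672 kb apart on chromosome 14, so they are not independent examples. Their windows did not overlap. Between them 10 segments took turns, 53.9% type 4, 29.8% type 3, 9.67% type 2 and 6.70% type 1, with no type 5. One of the type 4 segments between them, 190 kb long, lay within Xkr6.

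**Figure D2:**
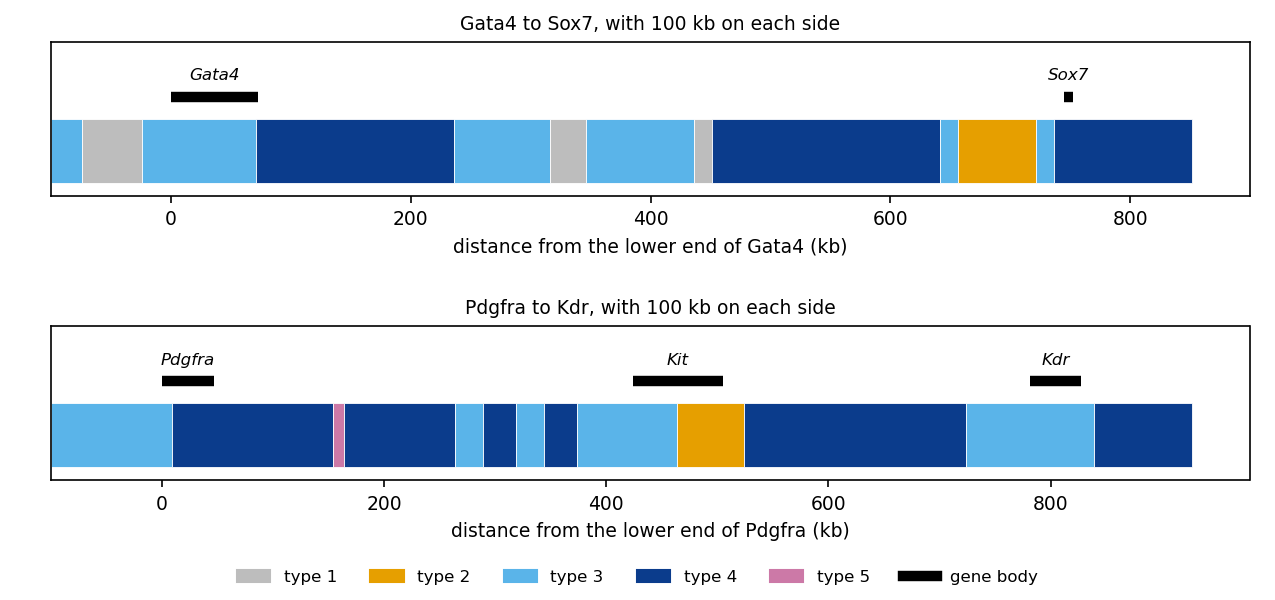
H2Aub types from Gata4 to Sox7 (upper map) and from Pdgfra past Kit to Kdr (lower map), with 100 kb on each side. The x axes give the distance in kb from the lower end of the first gene, black bars are gene bodies, and colours are types. Long type 4 runs (dark blue) lie between the genes, while Kit itself is split between types 2 and 3 and Kdr is type 3.

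Hnf4a encodes a nuclear receptor that drives the visceral endoderm programme and, later, liver genes. On chromosome 2 (163506811 to 163572907, 66.1 kb), its body was split almost evenly, 50.2% type 3 and 49.8% type 4, at position 163540001. The type 4 part was a segment of 40 kb, which lay between type 3 segments of 115 kb below and 30 kb above, and it reached 7.09 kb past the higher end of the gene. Its leading type thus rests on a difference of less than 1 percentage point. Over the window, type 3 took 54.5%, type 1 23.6%, type 4 15.0% and type 2 6.84%. Of 7 other protein-coding genes there, Gdap1l1, Fitm2 and R3hdml on the lower side were type 3, Oser1 was type 2, and Ttpal, Serinc3 and Pkig on the higher side were type 1. The lipid droplet gene Fitm2 and R3hdml lay wholly in type 3, and the antisense gene Hnf4aos was 96.4% type 3.

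Hnf4a is known for a pair of alternative promoters, and the RefSeq table of GRCm38.p6 gives a pair of start sites 40.3 kb apart on the plus strand. They fell in different types. The upstream one, at 163506857, lay in type 3, 33.1 kb below the border with type 4. The downstream one, at 163547155, lay in type 4, 7.16 kb above that border. The 250 bases before each start site are shown because these stretches stand on opposite sides of the border, with CG dinucleotides, the sites at which cytosine can be methylated and which cluster in CpG islands, in capitals.
Hnf4a upstream start, chr2:163506607-163506856, plus strand: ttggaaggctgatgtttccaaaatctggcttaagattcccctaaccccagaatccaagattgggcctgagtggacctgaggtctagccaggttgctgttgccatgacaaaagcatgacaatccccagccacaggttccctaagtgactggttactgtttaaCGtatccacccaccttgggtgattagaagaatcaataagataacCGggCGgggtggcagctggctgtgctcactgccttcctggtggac
Hnf4a downstream start, chr2:163546905-163547154, plus strand: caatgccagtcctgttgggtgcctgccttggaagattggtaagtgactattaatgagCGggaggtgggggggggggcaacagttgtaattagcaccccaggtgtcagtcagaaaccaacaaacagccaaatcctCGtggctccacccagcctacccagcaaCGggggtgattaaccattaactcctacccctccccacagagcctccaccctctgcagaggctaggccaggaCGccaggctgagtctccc
Both were poor in CG, with 3 and 4 dinucleotides, against a median of 10 over 20085 promoters of protein-coding genes. The upstream stretch held 1 match to AGATAA (or TTATCT on the other strand), a core of GATA factor motifs, which 8.72% of all such stretches hold. The downstream stretch had none. Neither held AACAAT or ATTGTT, a core of SOX motifs found in 7.94% of stretches.

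Pdgfra encodes the PDGF receptor that marks primitive endoderm cells at their surface. On chromosome 5 (75151322 to 75198206, 46.9 kb) it was 81.5% type 4 and 18.5% type 3. The border stood at position 75160001, 8.68 kb into the gene, and divided the whole window into 1 part of each type. Everything below it was type 3. That segment measured 130 kb and also held Gsx2, a homeobox gene of the forebrain. Everything above it was type 4, from a segment 145 kb long. The window thus had 2 segments and was 56.0% type 4 and 44.0% type 3, and windows of types 3 and 4 alone belong to 7.69% of protein-coding genes. Of the 7 windows this was the simplest, and 8.81% of protein-coding genes had fewer segments.

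The 1 start site of Pdgfra in the table, at 75152251, lay in the type 3 part, 7.75 kb below the border, while its leading type was 4. The stretch before it is shown for that reason, again with CG in capitals.
Pdgfra start, chr5:75152001-75152250, plus strand: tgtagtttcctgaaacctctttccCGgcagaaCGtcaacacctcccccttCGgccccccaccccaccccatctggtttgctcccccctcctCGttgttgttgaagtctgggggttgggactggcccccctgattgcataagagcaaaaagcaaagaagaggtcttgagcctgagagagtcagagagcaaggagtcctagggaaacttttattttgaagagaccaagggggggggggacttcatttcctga
It held 4 CG dinucleotides, against a median of 13 where the start site lies in type 3, and no match to the GATA or SOX letters given above.

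Kit and Kdr, receptor tyrosine kinase genes that follow Pdgfra on chromosome 5, did not repeat its pattern. Kit was split almost evenly, 51.0% type 2 and 49.0% type 3, and Kdr lay wholly in type 3. The 377 kb between Pdgfra and Kit were 70.8% type 4, and the 276 kb between Kit and Kdr were 72.4% type 4. No type 1 was found from Pdgfra to Kdr.

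Dab2 encodes a clathrin adaptor that visceral endoderm uses for endocytosis and for sorting to the surface. At 141 kb it was the longest of the 7, on chromosome 15 (6299788 to 6440715). Its body was 42.6% type 1, 28.5% type 5, 28.4% type 4 and 0.507% type 3. From the lower end, 213 bases of type 5 were followed by 40 kb of type 4, 40 kb of type 5, 60 kb of type 1 and 715 bases of type 3. Its leading type depends on the rule, since the middle of the gene lay in type 5. The type 4 segment lay between type 5 segments, an arrangement not met in the other 6 windows. The window held 10 segments of all 5 types, and 4.61% of protein-coding genes had as many segments or more. With the long body this window spanned 340.9 kb, and it was not compared with windows of like length. Type 1 made up 50.1% of it, with 90.7% of the higher flank. The complement gene C9, 4.63 kb from Dab2, was 91.3% type 1.

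The 2 Dab2 start sites in the table were 87 kb apart and also differed in type. The first, at 6299789, lay in type 5, but with 212 bases left to the type 4 border, less than 1 bin of 5 kb. The second, at 6386748, lay in type 1, 6.75 kb above the border with type 5. The stretches before them are shown because they differ in CG, which stands in capitals.
Dab2 first start, chr15:6299539-6299788, plus strand: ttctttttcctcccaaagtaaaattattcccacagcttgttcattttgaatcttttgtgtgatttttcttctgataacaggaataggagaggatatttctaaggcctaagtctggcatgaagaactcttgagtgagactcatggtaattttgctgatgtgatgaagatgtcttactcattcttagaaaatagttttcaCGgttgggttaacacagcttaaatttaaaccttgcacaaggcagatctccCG
Dab2 second start, chr15:6386498-6386747, plus strand: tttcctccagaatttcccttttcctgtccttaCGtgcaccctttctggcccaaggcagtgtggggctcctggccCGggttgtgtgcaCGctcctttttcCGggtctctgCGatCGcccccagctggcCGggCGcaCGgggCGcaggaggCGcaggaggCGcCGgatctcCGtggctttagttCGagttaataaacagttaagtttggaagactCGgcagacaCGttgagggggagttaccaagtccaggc
The first held 2 CG dinucleotides and was 36.8% G and C. The second held 17 and was 60.0% G and C, with 0.757 times the CG count that its C and G content would give in random order, and 67.5% of promoters had fewer. Neither had a match to the GATA or SOX letters given above. Only those exact letters were searched, so other forms of either motif were not counted in any of these stretches. Of 2660 genes with 2 or more start sites in the table, 12.5% had them in more than 1 type. Start sites of those genes spanned a median of 1.4 kb. Among the 365 whose start sites span at least 40 kb, as in Hnf4a and Dab2, the share was 47.1%.

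**Figure D3:**
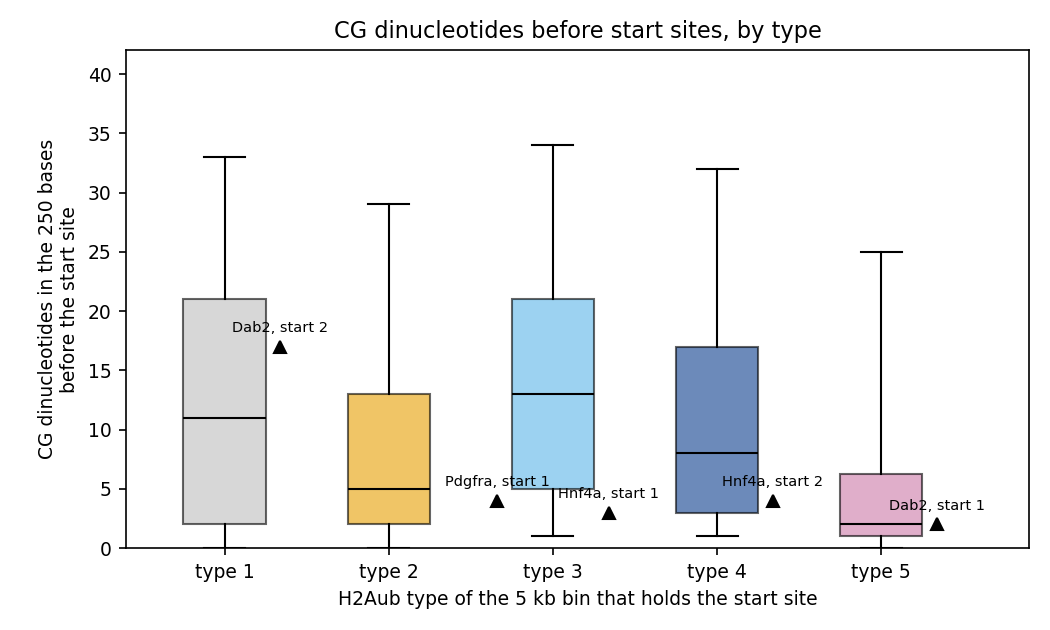
CG dinucleotides in the 250 bases before start sites of protein-coding genes (y axis) by the type of the 5 kb bin that holds the start site (x axis). Boxes span the quartiles with the median as a line, whiskers run from the 5th to the 95th percentile, and triangles are the 5 start sites of Hnf4a, Pdgfra and Dab2. The second Dab2 start stands above the type 1 median of 11, and the Hnf4a and Pdgfra starts stand below the medians of their types.

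Gata4, Gata6, Sox7 and Sox17 have no entry in the promoter table. Over all promoters in the table, the median CG count was highest for start sites in type 3, at 13, and lowest in type 5, at 2. Type 1 stood at 11, type 4 at 8 and type 2 at 5. The 4 CG-poor stretches of Hnf4a, Pdgfra and the first Dab2 start, with 2 to 4 CG each, were at or below the median of their own type.

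Length bears on several of these values, since longer bodies cross more borders. The 7 genes had a median length of 46.9 kb, against 17.6 kb for all protein-coding genes. A border of types 3 and 4 stood inside 3 of 7 bodies (Gata4, Hnf4a and Pdgfra), against 7.15% of all protein-coding genes. In Gata4 it rests on 1712 bases, less than 1 bin of 5 kb, so Gata4 may hold no such border and may lie in 1 type. Among genes of at least 46.9 kb, where those 3 and Dab2 belong, such a border stood inside 16.3%. Among shorter genes, where 0 of the other 3 had one, it stood inside 4.24%. Bodies wholly in 1 type numbered 3 of 7 against 68.7%. All 3 (Gata6, Sox7 and Sox17) were under 46.9 kb, where 79.7% of genes are in 1 type, and none of the 4 longer ones was, against 34.2% of genes that long. Bodies of types 3 and 4 alone were 3 of the 4 longer genes, against 21.5%, and 3 of the 3 shorter ones, against 44.9%. Borders of types 3 and 4 in the window were found for 4 of 7, against 39.5%, so on this measure the genes were near the background.

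**Figure D4:**
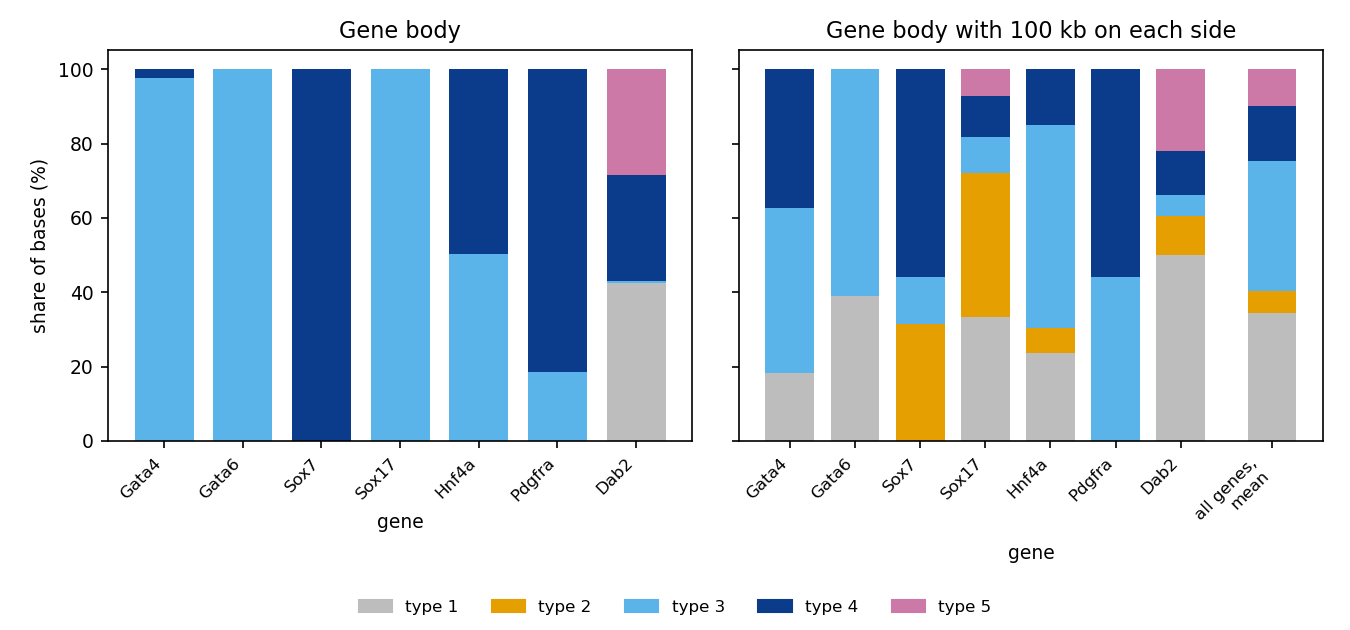
Share of bases in each H2Aub type (y axis, percent) for each of the 7 genes, over the body (left panel) and over the body with 100 kb on each side (right panel). The last bar of the right panel is the mean window of all protein-coding genes. Gata4, Gata6, Sox7, Sox17, Hnf4a and Pdgfra have no type 1, 2 or 5 in the body, while all windows but that of Pdgfra hold type 1 or 2.

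Over the windows, the median share of type 3 was 44.0%, against 31.6% over all protein-coding genes, and that of type 4 was 15.0% against 0%. By mean, type 4 took 26.7% of the 7 windows against 14.8% and type 3 33.2% against 34.9%, so median and mean of type 3 fell on different sides of the background. Type 5 was found in the windows of Sox17 and Dab2, 2 of 7 against 25.6%. Type 3 was found in 7 of 7 against 82.1%. Type 2 was found in 4 of 7 against 35.6% and type 1 in 5 of 7 against 78.8%. The windows had a median of 5 segments, as did those of all protein-coding genes.

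The 7 windows differed among themselves, though the same measure over pairs of other genes is not given, so these values stand without a background. The most alike pair was Gata4 and Pdgfra, where 18.7% of the window would have to change type for equal shares, and the least alike was Gata6 and Sox7, at 87.3%. Gata6 and Hnf4a followed at 21.9% and Gata4 and Hnf4a at 22.3%. Sox17 and Dab2, the 2 with all 5 types, differed by 32.3%. Over all protein-coding genes elsewhere in the genome, the windows closest to that of Gata4 were those of Zdhhc4 (0.386% different), Cacnb1 and Heatr9. The closest to Gata6 were Rab29, Pde6g and Def8, each within 0.0262%, and the closest to Pdgfra were Elmo2, Usp18 and Vsig10l, each within 0.0368%. For Hnf4a they were Morn5, Saal1 and Kcnj4, at 2.37% to 2.63%, and for Sox7 Capns2, 4930523C07Rik and Kcnj8, at 2.49% to 2.91%. Tph2 and Zdbf2 were among the closest to Sox17, at 4.6% and 6.22%. Dab2 had the least close matches, the interferon genes Ifna16, Ifna2 and Ifnab at 7.04% to 7.05%, and these 3 share 1 cluster.

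The windows held 46 other annotated genes, 18 of them protein-coding. Of those 18, 8 had the leading type of the regulator whose window they share. Over all 112080 pairs of a protein-coding gene and another in its window, the leading types were equal in 56.7%. They were 3 near Sox7, 3 near Hnf4a, 1 near Gata4 and 1 near Dab2.

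Paralogs of the regulators also lay in several types. In the GATA family, Gata2 and Gata5 lay wholly in type 4 and Gata3, a trophectoderm factor, wholly in type 3. Sox18, the remaining gene of the Sox7 and Sox17 subgroup, lay wholly in type 3. Pdgfrb, the other PDGF receptor gene, lay wholly in type 4, Flt3 was 86.0% type 4 and Csf1r 78.2% type 3. Hnf4g, in contrast to the types 3 and 4 of Hnf4a, was 90.2% type 5. Dab1, a neuronal adaptor gene of 1125 kb, was 85.3% type 2. Of the 11 paralogs, 4 had type 3 as leading type and 4 type 4, against 33.8% and 14.0% of all protein-coding genes. Kit, at 51.0%, and Dab1 led in type 2 (against 5.44%) and Hnf4g in type 5 (against 9.53%).

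Other genes of the lineage were read from 4 lists with 46 genes. Type 3 led in 18 of them and type 4 in 14, against 33.8% and 14.0% of all protein-coding genes. The other 14 divided into 7 of type 1, 4 of type 2 and 3 of type 5, against 37.2%, 5.44% and 9.53%. Types 3 and 4 together made 32 of 46, beside 6 of the 7 regulators and 47.8% of all protein-coding genes. All 8 endoderm transcription factor genes were in those types. The pioneer factor gene Foxa1, Hhex and Eomes lay wholly in type 3. Foxa2, Otx2 and Lhx1 lay wholly in type 4. These 6 genes were all under 46.9 kb, a length below which 79.7% of protein-coding genes are in 1 type.

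The 11 FGF and PDGF pathway genes fell into 4 types, with 4 of type 3, 3 of type 5, 3 of type 1 and 1 of type 4. These types lead in 33.8%, 9.53%, 37.2% and 14.0% of all protein-coding genes, in that order. Fgf4, the ligand gene, lay wholly in type 4. The receptor genes were mixed, Fgfr1 71.5% type 1 and Fgfr2 61.7% type 3. Grb2, an adaptor gene that most cells use, lay wholly in type 1, and the exchange factor gene Sos1 was 69.7% type 5. Of the feedback genes, Dusp4 and Spry4 lay wholly in type 3 and Spry2 wholly in type 5. Of the PDGF ligand genes, Pdgfa was types 3 and 4 alone, like the receptor gene Pdgfra, but with 76.6% type 3 and 23.4% type 4. Pdgfc lay wholly in type 5.

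The 14 visceral endoderm product genes were 6 of type 4, 4 of type 3, 2 of type 2 and 2 of type 1. Over all protein-coding genes, the shares of these types are 14.0%, 33.8%, 5.44% and 37.2%, in that order. The signalling genes Ihh, Bmp2, Cer1 and Lefty1 and the apolipoprotein gene Apoa1 lay wholly in type 4, and Rbp4 over 61.1%. The Wnt antagonist gene Dkk1, the carrier gene Ttr, Apoe and Amn lay wholly in type 3. The serum protein genes Afp and Apob were type 2 over 100% and 95.3%. The endocytic receptor genes Lrp2 and Cubn were 83.5% and 58.9% type 1, which leads in 37.2% of all protein-coding genes. By the middle bin Cubn turned to type 2, and by the start-site bin Lrp2 turned to type 3.

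Among 13 basement membrane and parietal endoderm genes, 6 had type 3, 3 had type 4 and 2 each had types 2 and 1. The collagen chaperone gene Serpinh1, the thrombomodulin gene Thbd and the follistatin gene Fst lay wholly in type 4. Sparc and Plat lay wholly in type 3. The 3 laminin chain genes were Lama1 with 63.7% type 2, Lamb1 with 54.3% type 2 and Lamc1 with 63.9% type 1. The adjoining collagen genes Col4a1 and Col4a2 were 62.5% and 76.4% type 3, the rest being type 4.

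**Figure D5:**
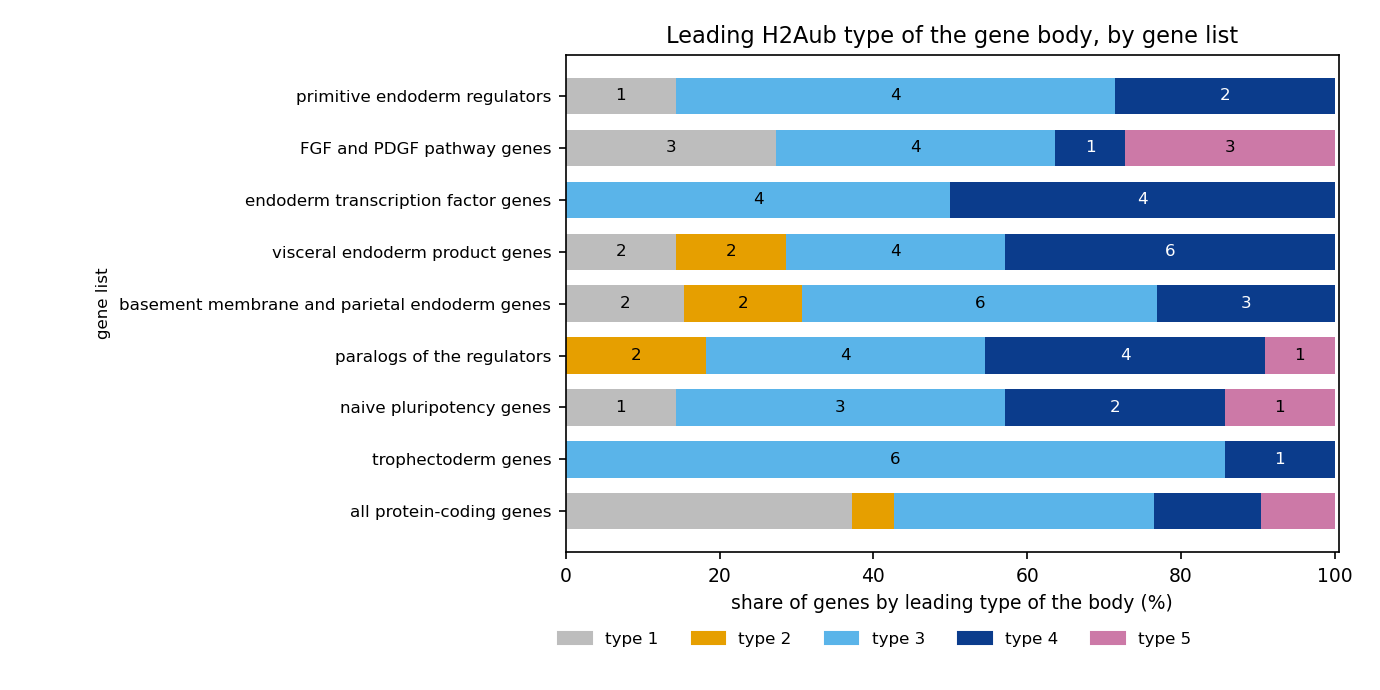
Share of genes by leading H2Aub type of the body (x axis, percent) for each gene list (y axis), with the number of genes written in the blocks of each list and all protein-coding genes in the lowest bar. All 8 endoderm transcription factor genes and 6 of the 7 primitive endoderm regulators are type 3 or type 4, while the FGF and PDGF pathway genes include 3 of type 1 and 3 of type 5.

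Factors of the other blastocyst lineages were set beside them. Of 7 naive pluripotency genes, Pou5f1, Sox2 and Prdm14 were type 3, Klf4 and Esrrb type 4, and Tfcp2l1 type 1. Nanog, whose product opposes that of Gata6, lay wholly in type 5, the leading type of 9.53% of protein-coding genes. Of 7 trophectoderm genes, Elf5 was type 4 and the other 6 were type 3, which leads in 33.8% of all protein-coding genes. Gata3 and Eomes are among those 6, and other lists hold them too. Types 3 and 4 together led in 7 of 7 trophectoderm genes and 5 of 7 pluripotency genes. The same was true of 6 of the 7 regulators and 47.8% of all protein-coding genes. With lists of 7 genes, no difference in type between the lineages was tested.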

How the data were processed

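The assay was CUT&RUN, in which an antibody-tethered nuclease releases DNA around a mark, here H2Aub or H3K27me3. The submitters' processing notes name the mm10 build with deepTools 3.0.2, Picard 2.8.0, Bowtie2 2.3.4.3 and Trim Galore 0.4.5. The table analysed was deposited by the authors for the whole series and calls itself ChromHMM types of H2Aub; ChromHMM sorts bins of a genome into classes by the marks they carry. For its version, input libraries and key to the types, the sources used here give nothing. Each deposited value is a label from 1 to 5, so no test of levels was possible, replicates could not be compared and depth is unknown.

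Segment ends were multiples of 5 kb. Of 492539 bins, 261 lay in 2 segments, and the shorter was used. Gene positions came from NCBI RefSeq, GRCm38.p6, without 333 genes on scaffolds. Shares are of bases, and the leading type has the largest share. Similarity of windows is the summed difference of the 5 shares, halved. As an alternative rule for the type, the most upstream start site was used. Start sites and the 250 bases before them came from the RefSeq promoter table, which held 3 of the 7 genes. For each regulator the 3 most similar protein-coding genes over 1 Mb away are named, as are neighbours in a window and genes of the lists, though a few of these are not reported here. Other windows, other rules for the type and all annotated genes as background were tried as alternatives. The code was tested on simulated segments (Python 3.11.15, pandas 2.3.3). Genes and lists were chosen with earlier results of these data known. The comparisons with genes of like length and with widely spaced start sites, the distances to the nearest type and the share of like neighbours were added after values were seen.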

Additional observations from a re-analysis of the deposited data

How the results depend on the processing

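No paired analysis was possible because the segmentation holds no value for any library. By the type of the middle bin, Dab2 turned to type 5, so that 0 of the 7 regulators were type 1 and 1 was type 5. By the bin of the most upstream start site in the promoter table, which held 3 of them, 2 were type 3 (Hnf4a and Pdgfra), 1 was type 5 (Dab2), and 0 were type 1 or type 4. Over all 20085 promoters of protein-coding genes, 40.5% had the start site in type 3 and 31.8% in type 1. Type 4 held 15.3%, type 5 8.5% and type 2 3.82%. Those shares count every start site in the table, not the most upstream alone. With at least 90% of the body required in 1 type, 4 genes were left, 1 of them in type 4 and 0 in type 1. Of the 46 other endoderm genes, 31 had a start site in the table. These numbered 12 of type 4, 11 of type 3, 3 each of types 1 and 5 and 2 of type 2. The 90% minimum also left 31, with 13 of type 4, 12 of type 3 and 2 each of types 1, 2 and 5. By start site, Col4a1, Col4a2 and Pth1r had turned to type 4 and Lamb1 and Lrp2 to type 3, while the 90% minimum lowers counts by leaving genes out. With 5 kb added on each side, or the longer segment in overlaps, none of the 7 changed its leading type. Type 4 was found in 5 of 7 windows with 20 kb on each side or with at least 25 kb of it required, and in 6 with 50 or 200 kb. The median type 3 share of the windows fell to 30.2% with 200 kb on each side. Shares over all protein-coding genes are not given at these settings, so these values stand without a background. The 48.0% (any type 4) and the median of 31.6% (type 3) of all protein-coding genes belong to 100 kb on each side. Over all annotated genes, type 1 led in 33.0% and type 3 in 31.0%, beside shares of 15.9% (type 4), 12.8% (type 5) and 7.2% (type 2). Borders are known to 5 kb, which limits the call at the first Dab2 start site. The same limit applies to the Gata4 border, 1712 bases inside the gene, and to the end segments of the Dab2 body.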
